A study of Mus musculus with 5 samples.

Results

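The peaks described here are those on mouse chromosome 17 in 3 lists of binding sites of E2F transcription factors. They were chosen by a value measured in these data, since chromosome 17 was among the chromosomes with the most peaks per Mb, so its density is described without a test. The chromosome held 666 of the 10489 peaks of the series (6.35%), namely 252 of 3787 E2F1 peaks, 136 of 1998 E2F3A peaks and 278 of 4704 E2F3B peaks. When peaks of any list that overlapped were joined, they formed 462 merged regions, of 7852 in all.

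Binding was mapped by chromatin immunoprecipitation and sequencing (ChIP-seq), in which an antibody pulls down a protein with the DNA it sits on, in mouse embryonic fibroblasts of a mixed FVB/NT, 129S1/Svlmj and C57BL/6NT background. The fibroblasts were dividing out of step with each other in medium with serum, and they stably overexpressed E2F1, E2F3A or E2F3B, with 1 library for each protein. The E2F1 cells were precipitated with an anti-E2F1 antibody and both E2F3 cell populations with 1 anti-E2F3 antibody. Lists are named by the overexpressed protein, and which E2F3 isoform sat at a peak was not determined here. The E2F1 list differs from the E2F3 lists in antibody as well as in protein. What drove the overexpression and how many clones each population held were not given in the sources used here, and no uninduced cells enter the comparisons. The 1KO_MEF and 3KO_MEF samples, of genotypes 1-/- and 3-/-, were not analysed here. Because each protein had 1 library, no value below has a replicate error. The intervals cover counting error of peaks only, and depth is unknown because the lists hold no read counts. Where no peak was listed, none was called, which is not a measurement of absent binding.

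E2F proteins bind DNA together with a DP partner at a short GC-rich motif, most often in promoters. Their classical targets encode the enzymes of DNA replication, nucleotide synthesis and cell cycle control, and retinoblastoma family proteins hold them inactive in resting cells. E2F1 and E2F3A are usually classed as activators, and E2F3B is a shorter product of the E2F3 gene made from its own promoter. Mouse chromosome 17 carries the t-complex and the major histocompatibility complex (H2), a block packed with immune and housekeeping genes. Positions are in the mm9 build, and genes and sequences at these positions were not analysed here.

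Chromosome 17 was the densest autosome for E2F3B and the next densest after chromosome 15 for both other proteins. Over the 92.1 Mb between its outermost peaks, from 3084012 to 95149505, its density was 2.74 per Mb for E2F1, 1.48 for E2F3A and 3.02 for E2F3B. The other 18 autosomes together held 1.51, 0.801 and 1.90 per Mb in the same order of lists. Their E2F1 densities ran from 0.627 to 3.23 per Mb, their E2F3A densities from 0.251 to 1.59 and their E2F3B densities from 0.790 to 2.80. The density of chromosome 17 was thus 1.81 times that of the other autosomes for E2F1, 1.84 times for E2F3A and 1.59 times for E2F3B. Just behind it stood chromosome 10 for E2F1, at 2.61 per Mb, chromosome 8 for E2F3A, at 1.23, and chromosome 15 for E2F3B.

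**Figure D1:**
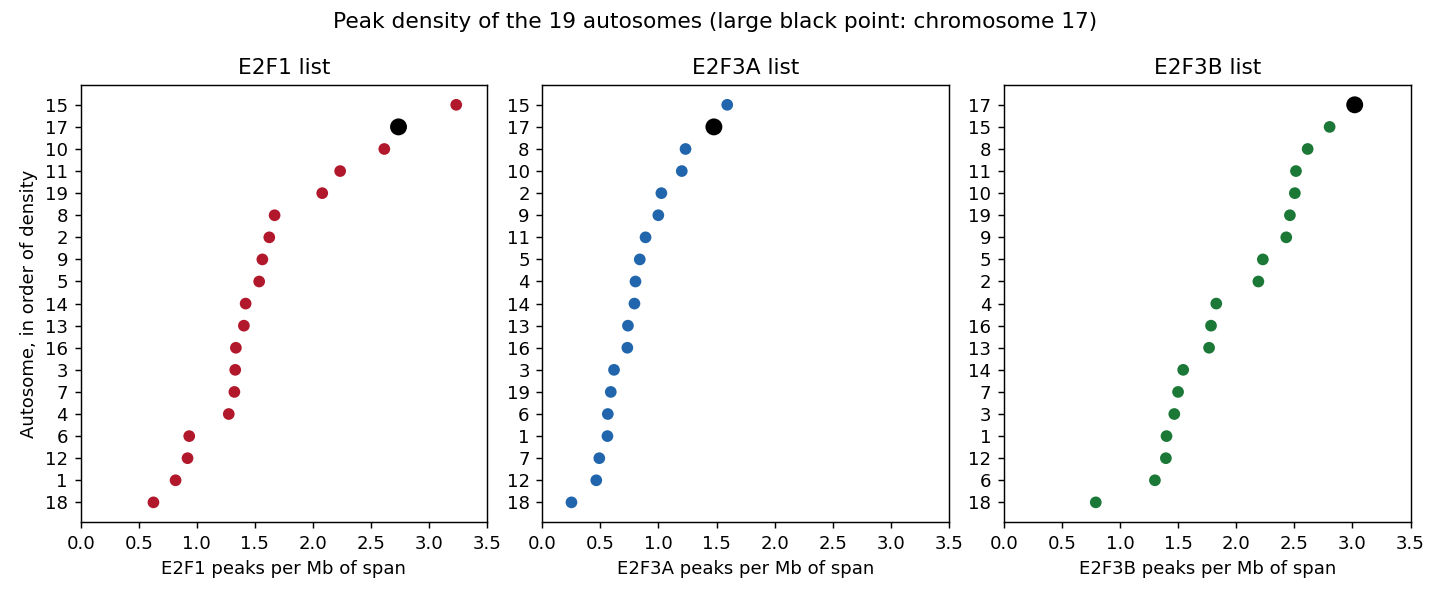
Peaks per Mb of span on each of the 19 autosomes, in order of density, for the E2F1, E2F3A and E2F3B lists. The large black point is chromosome 17, at 2.74, 1.48 and 3.02 peaks per Mb, which ranked 2 for E2F1 and E2F3A and 1 for E2F3B.

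Peak counts on chromosome 17 were tilted a little away from the E2F3B list compared with the other autosomes together, within the range of single autosomes. There were 0.906 E2F1 peaks for each E2F3B peak, against 0.796 elsewhere, which ranked 5 among the 19 autosomes. There were 0.489 E2F3A peaks for each E2F3B peak, against 0.422, which ranked 3. The chromosome is also gene-rich. In the RefSeq table of the later build GRCm38, from which only the chromosome of each gene was taken, it held 1059 protein-coding genes, or 11.5 per Mb of the peak span, which ranked 4. Counted per 100 protein-coding genes it held 23.8 E2F1, 12.8 E2F3A and 26.3 E2F3B peaks, against 17.6, 9.36 and 22.2 on the other autosomes. By that count its ranks were 3, 4 and 4, and chromosome 15 was the highest for each list.

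The peaks of chromosome 17 were bunched into a few stretches. Windows of 1 Mb were laid from position 0, and each peak or merged region was counted where its centre lay. Of the 93 windows from the first to the last peak, 10 (10.8%) held no region, the median held 3 and the fullest 23. On the other autosomes 19.8% of windows were empty and the median held 2. Windows with 10 or more regions, called dense here, made up 13 of the 93 (13.98%), where the background over the 2309 windows of the other autosomes was 5.02%. Only chromosome 15 had a larger share of dense windows among the autosomes, at 15.8%. The variance of the region count over windows was 5.70 times its mean, the highest of the 19 autosomes, and 3.64 times over the windows of all other autosomes. This ratio and the share of dense windows tend to rise with the mean count. Chromosome 17 was chosen for its density and had a mean of 4.97 regions per window, against 3.14, so these ranks partly restate that choice. Very full windows were also frequent: 3 windows of chromosome 17 and 6 of the other 18 autosomes together held 20 or more regions.

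**Figure D2:**
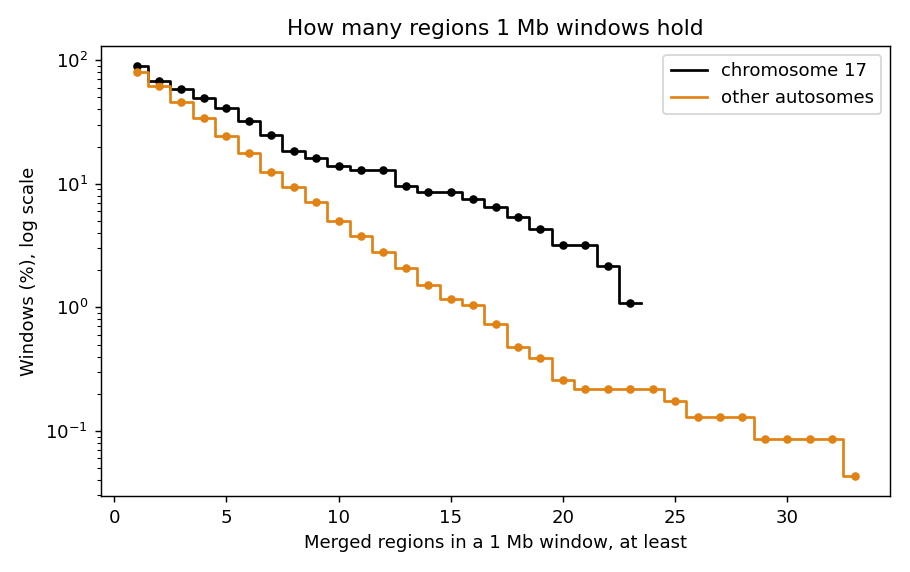
Share of 1 Mb windows (log scale) that held at least the number of merged regions on the x axis, for the 93 windows of chromosome 17 and the 2309 windows of the other 18 autosomes. The curve of chromosome 17 lies above the other up to its fullest window, of 23 regions, while 5 windows elsewhere held 24 or more.

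The 13 dense windows fell into 4 stretches. The longest ran over 7 consecutive windows from 23 to 30 Mb and held 104 regions, with 58 E2F1, 29 E2F3A and 74 E2F3B peaks. A pair of windows from 34 to 36 Mb held 36 regions, with 24, 10 and 32 peaks in the same order. Windows from 45 to 48 Mb held 49 regions, with 21, 16 and 31 peaks, and the single window from 56 to 57 Mb held 21 regions, with 16, 7 and 14 peaks. Together these windows made up 13.98% of the chromosome's windows and held 45.5% of its regions.

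The part around 27 to 36 Mb, where several of the widest peaks lie, was therefore not evenly full. It held 101 regions and 59 E2F1, 33 E2F3A and 78 E2F3B peaks. Its density was 2.82 times that of the rest of chromosome 17 for E2F1, 2.96 times for E2F3A and 3.60 times for E2F3B. Between the dense stretches, however, the 4 windows from 30 to 34 Mb held only 18 regions, with 2 to 7 in each. The fullest run of 9 neighbouring windows lay lower on the chromosome, from 23 to 32 Mb, with 112 regions. Such runs reached 126 regions on chromosome 15 and 115 on chromosome 10, from 74 to 83 Mb and from 75 to 84 Mb.

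Among single 1 Mb windows, the 5 with the most regions began at 24, 46, 56, 35 and 29 Mb. The window from 24 to 25 Mb held 23 regions with 13 E2F1, 5 E2F3A and 16 E2F3B peaks, and 5 windows of other autosomes held more. The window from 46 to 47 Mb held 22 regions with 12, 6 and 14 peaks. The window from 56 to 57 Mb had the most E2F1 peaks of chromosome 17, 16, a count that 2 windows elsewhere exceeded. The window from 35 to 36 Mb held 19 regions and the most E2F3B peaks of the chromosome, 18, with 14 E2F1 and 8 E2F3A peaks. The window from 29 to 30 Mb held 18 regions with 11 E2F1, 11 E2F3A and 15 E2F3B peaks.

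These windows differed in make-up as well as in number. E2F3A peaks were as many as E2F1 peaks at 29 to 30 Mb, and their count of 11 there was above that of every window on the other autosomes, where the highest was 8. The windows at 29 to 30 Mb and 35 to 36 Mb each held 7 regions called for all 3 proteins, and no window of the other autosomes held more than 6. At 27 to 28 Mb, by contrast, 11 E2F3B peaks stood beside 3 E2F1 and 3 E2F3A peaks, and 0 of the 13 regions there were called for all 3 proteins. The exact place of a fullest window depends on where the grid begins. With the grid moved by 0.5 Mb, the fullest window ran from 28.5 Mb and held 22 regions, and it then led the E2F1 and E2F3A lists and tied with another window for E2F3B.

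In windows of 5 Mb laid from position 0, the same window led every list. With that grid moved by 2.5 Mb, the fullest window began at 22.5 Mb for E2F1 and E2F3B, with 38 and 43 peaks, and at 27.5 Mb for E2F3A, with 22. On the unshifted grid, from 25 to 30 Mb, there were 71 regions with 39 E2F1, 22 E2F3A and 51 E2F3B peaks, and 1 window of the other autosomes, on chromosome 15 from 75 to 80 Mb, held more, with 86 regions. The window from 45 to 50 Mb came next, with 55 regions and 25, 18 and 35 peaks, and then that from 20 to 25 Mb, with 41 regions and 21, 9 and 27 peaks. The far end of the chromosome was thin, with 3 regions from 90 to 95 Mb. The 6 regions below 5 Mb all lay beyond the start of the first peak, at 3084012, and 5 of them in the window from 3 to 4 Mb. From 15 to 20 Mb there were 7 regions, and the longest stretch without any peak lay there and just beyond, from 17511918 to 20618190 (3.11 Mb). The lists did not always follow each other: from 60 to 65 Mb there were 5 E2F1 and 5 E2F3A peaks and 0 E2F3B peaks, while from 65 to 70 Mb 13 E2F3B peaks stood beside 6 and 5.

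**Figure D3:**
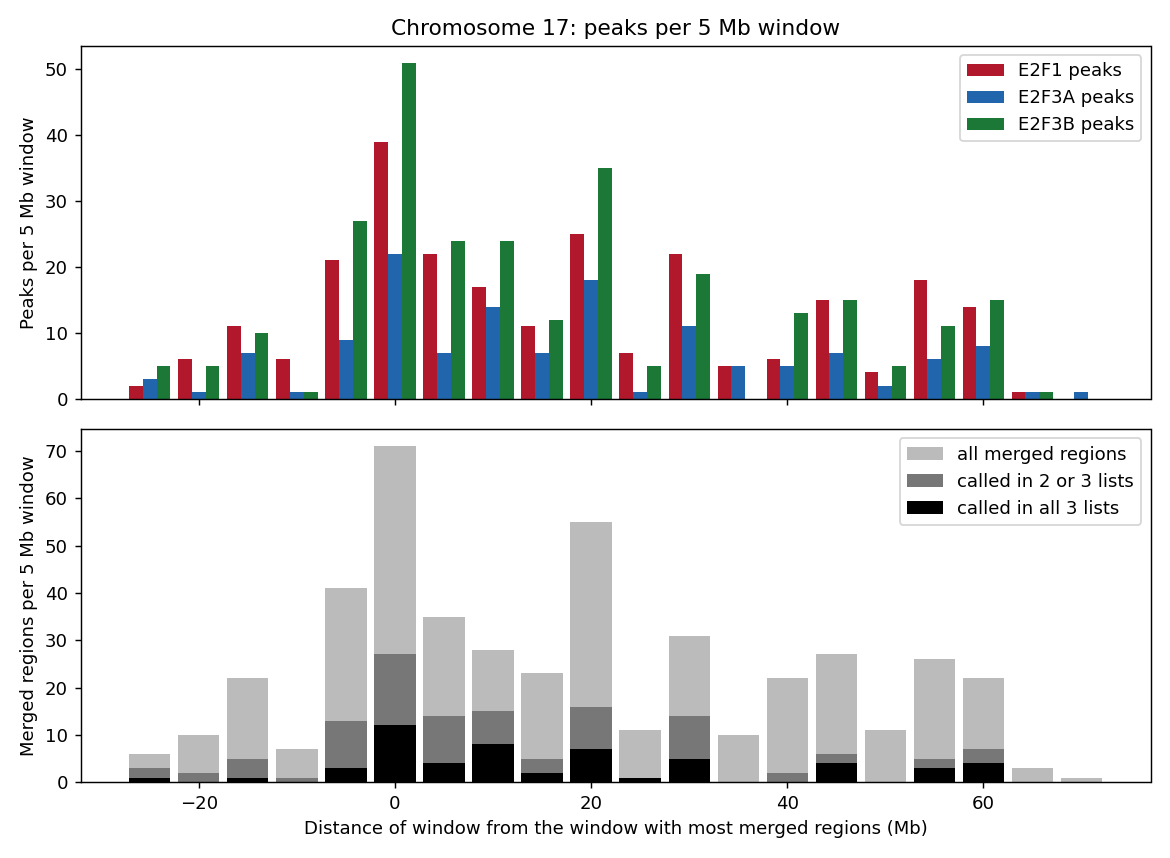
Peaks of each list (upper panel) and merged regions (lower panel, with those called in 2 or 3 lists and in all 3 lists in darker shades) per 5 Mb window of chromosome 17, by distance from the window with most regions. That window holds 71 regions, of which 12 were called in all 3 lists, and the next peak, 20 Mb away, holds 55.

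Across the 93 windows of 1 Mb, the counts of the lists rose and fell together. Pearson's r between E2F1 and E2F3B counts was 0.881 (Spearman's rho 0.711). Between the isoforms E2F3A and E2F3B it was 0.818 (rho 0.699), and between E2F1 and E2F3A 0.771 (rho 0.671). At 1 Mb, each r was above that of every other autosome, where the highest were 0.873, 0.764 and 0.719. A shared peak counts in both lists, which builds in part of this relation, so the counts were also taken over peaks found in no other list. For these, r fell to 0.488, 0.374 and 0.295 for the pairs as listed, and the highest of the other autosomes were 0.502, 0.348 and 0.381. In windows of 5 Mb, r over all peaks was 0.945, 0.937 and 0.900 in that order. The highest of the other autosomes were then 0.957, 0.889 and 0.894, so chromosome 17 did not lead for E2F1 and E2F3B. Whether sequence composition or gene content of the windows has a part in this was not tested, and these coefficients describe positions in 3 libraries.

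Regions on chromosome 17 lay closer together, which in part restates the density for which the chromosome was chosen. The median gap between neighbouring regions was 72.2 kb (quartiles 27.7 and 199.9 kb), the shortest of the 19 autosomes, and 131 kb over the others. Gaps of at most 10 kb were 54 of 461 (11.7%, 95% Wilson interval 9.09 to 15.0), against 9.39% elsewhere (8.74 to 10.1), and chromosome 11 had a larger share. These gaps joined regions into 46 groups, of which 39 were pairs, 6 were threes and 1 held 4 regions. The group of 4 spanned 9279 bp, from 28614214 to 28623492, with 2 E2F1, 1 E2F3A and 3 E2F3B peaks, and 1 of its regions was called for all 3 proteins. The tightest of the groups of 3, from 24686628 to 24688105, spanned 1478 bp, with 2 E2F1 and 2 E2F3B peaks. In the group from 27691773 to 27702926 there was 1 E2F1 peak beside 1 E2F3A and 3 E2F3B peaks, and no region was common to all 3 lists.

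Sharing between the lists was the next measure taken, where an overlap of at least 1 bp made peaks of 2 lists shared. On chromosome 17, 125 of 252 E2F1 peaks (49.6%, interval 43.5 to 55.7) overlapped a peak of another list, where the background over the other autosomes was 44.7%. For E2F3A it was 75 of 136 (55.1%, 46.8 to 63.2), with a background of 44.1%. For E2F3B it was 140 of 278 (50.4%, 44.5 to 56.2), with a background of 40.1%. The differences from the other autosomes were 4.94 percentage points for E2F1 (95% interval -1.41 to 11.3), 11.03 for E2F3A (2.34 to 19.4) and 10.3 for E2F3B (4.26 to 16.3), in intervals that take peaks as independent. Peaks lie in groups, so these intervals are too narrow. Among the autosomes the shares ranked 7 for E2F1, 4 for E2F3A and 2 for E2F3B. Single other autosomes ranged from 31.9% to 58.8% for E2F1, from 30% to 67.1% for E2F3A and from 34.2% to 50.7% for E2F3B, so chromosome 17 lay within the range for each.

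**Figure D4:**
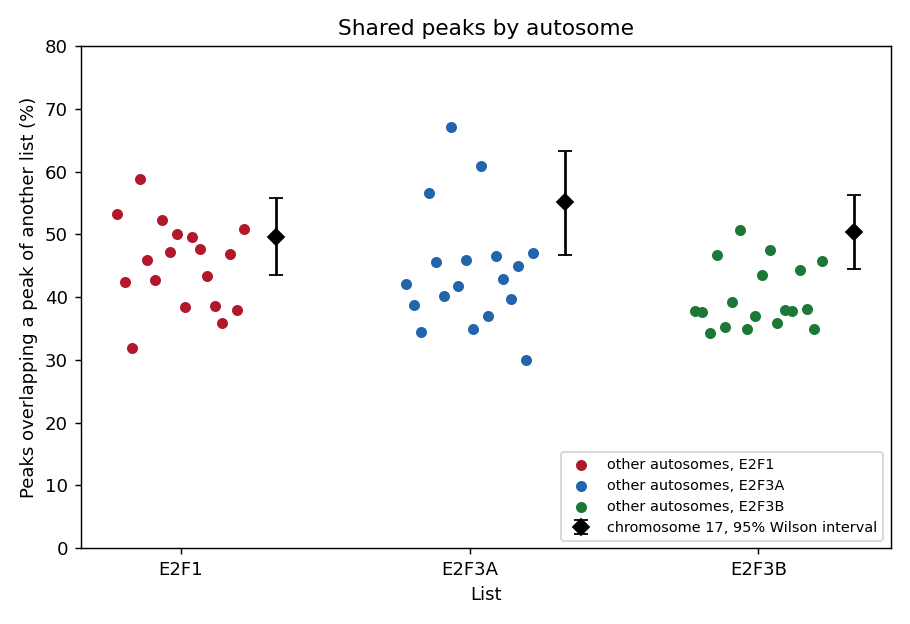
Share of peaks that overlapped a peak of another list, for each list. Each coloured point is 1 of the other 18 autosomes and the black diamond is chromosome 17 with its 95% Wilson interval, at 49.6% for E2F1, 55.1% for E2F3A and 50.4% for E2F3B, within the spread of the other autosomes.

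By pair of lists, overlaps of at least 1 bp were more frequent on chromosome 17, but pairs with E2F1 did not keep this under every stricter rule. Of the E2F3A peaks on chromosome 17, 51.5% (interval 43.1 to 59.7) were in the E2F3B list and 46.3% (38.2 to 54.7) in the E2F1 list, against 40.8% and 34.7% on the other autosomes. Of the E2F1 peaks, 48.0% were in E2F3B and 23.4% in E2F3A, against 43.1% and 18.2%. Of the E2F3B peaks, 45.7% were in E2F1 and 24.8% in E2F3A, against 36.1% and 17.3%. The lists of a pair share the same overlaps, so these 6 shares are not separate observations. With a reciprocal overlap of at least 50%, the pair of E2F1 and E2F3A no longer stood above the other autosomes: 16.9% of E2F3A peaks were in E2F1, against 17.4%, and 9.13% of E2F1 peaks were in E2F3A, against 9.22%. When centres had to lie within 100 bp, the E2F1 list matched 23.5% of E2F3A peaks, against 20.2% elsewhere. The E2F3B list then matched 22.2% of E2F1 peaks, against 24.0%, and the E2F1 list 20.1% of E2F3B peaks, against 19.1%. By reciprocal overlap, 29.8% of E2F1 peaks were in E2F3B, against 28.3%, and 26.98% of E2F3B peaks in E2F1, against 22.54%. The pair of E2F3A and E2F3B stayed above the other autosomes under both stricter rules. By reciprocal overlap and by centres, 41.2% and 36.03% of E2F3A peaks were in E2F3B, against 34.8% and 30.94%. Of E2F3B peaks, 20.1% and 17.6% were in E2F3A, against 14.7% and 13.1%.

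Counted as regions, 55 of the 462 (11.9%, interval 9.26 to 15.2) were called for all 3 proteins, with a background of 7.96% on the other autosomes. This share ranked 2 among the autosomes, after chromosome 7 with 12.2%. Counted over peaks rather than regions, the excess depended on the rule. It was kept when peaks within 500 bp counted as matched. Peaks matched in both other lists were then 22.2% for E2F1, 44.1% for E2F3A and 21.9% for E2F3B, against 17.3%, 32.5% and 14.7%. With peak centres within 100 bp, peaks matched in both other lists were 7.54% for E2F1, 15.4% for E2F3A and 6.12% for E2F3B, against 7.40%, 14.9% and 6.30% elsewhere. With a reciprocal overlap of at least 50% they were 7.14%, 15.4% and 9.71%, against 7.52%, 15.3% and 8.14%. Per Mb, chromosome 17 had 0.597 regions called for all 3 proteins, the most of any autosome, followed by chromosome 15 with 0.511. This rank in part restates the density for which the chromosome was chosen. Regions of E2F1 and E2F3B without E2F3A made up 14.1%, those of E2F3A and E2F3B 2.60% and those of E2F1 and E2F3A 0.866%, close to the 12.6%, 2.34% and 0.717% of the other autosomes. Regions in the E2F3B list alone made up 29.9% (25.9 to 34.2) of all regions, against 35.9%. Those in the E2F1 list alone made up 27.5%, against 26.4%, and those in the E2F3A list alone 13.2%, against 14.1%.

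Sharing was concentrated in the dense windows. Regions called in 2 or 3 lists were 10.6% (10 of 94, interval 5.88 to 18.5) in windows of 1 to 4 regions, 27.2% (43 of 158, 20.9 to 34.6) in windows of 5 to 9 and 39.5% (83 of 210, 33.2 to 46.3) in dense windows. The other autosomes had the same order with a smaller range, at 17.1%, 25.4% and 32.4%. Regions of all 3 lists rose in the same way, from 3.19% to 11.4% and 16.2% on chromosome 17 and from 5.65% to 8.33% and 11.6% elsewhere. In each class of window the interval of chromosome 17 for regions of all 3 lists met that of the other autosomes. The dense windows held 34 of the 55 regions called for all 3 proteins (61.8%).

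**Figure D5:**
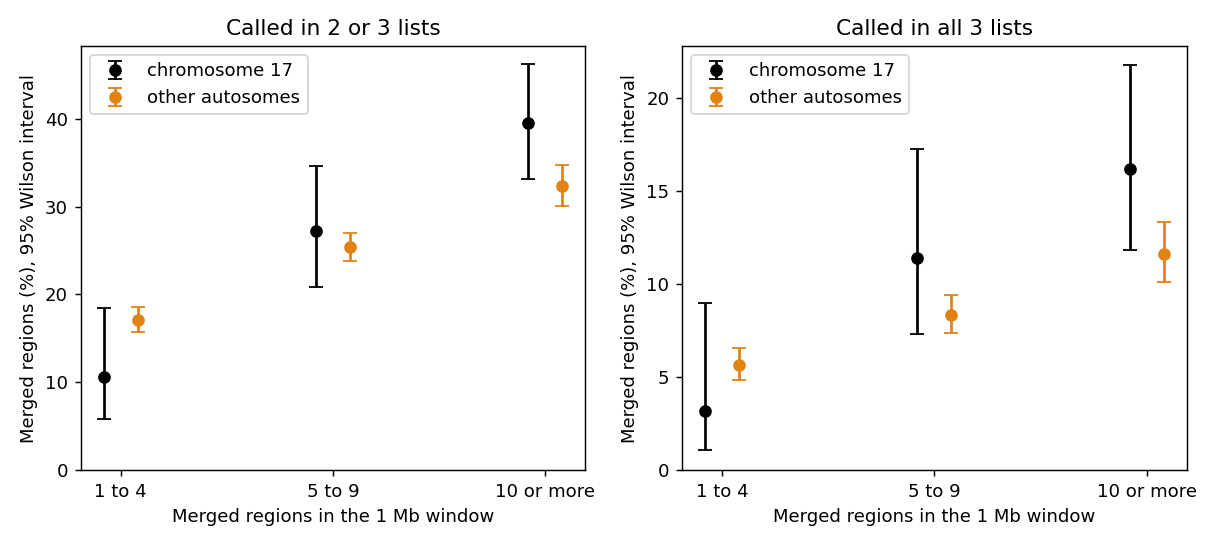
Share of merged regions called in 2 or 3 lists (left) and in all 3 lists (right), with 95% Wilson intervals, by the number of regions in their 1 Mb window. On chromosome 17 the left share went from 10.6% to 39.5% and on the other autosomes from 17.1% to 32.4%.

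Within chromosome 17, sharing was higher in the 27 to 36 Mb interval than outside it. Inside it, 41 of 59 E2F1 peaks were shared (69.5%, interval 56.9 to 79.7), as were 26 of 33 for E2F3A (78.8%, 62.2 to 89.3) and 47 of 78 for E2F3B (60.3%, 49.2 to 70.4). On the rest of chromosome 17 the shares were 43.5% (36.7 to 50.6), 47.6% (38.2 to 57.1) and 46.5% (39.7 to 53.4). With the interval left out of chromosome 17 only, the difference from the other autosomes was -1.14 points for E2F1, 3.46 for E2F3A and 6.43 for E2F3B. The other autosomes kept their dense windows, where sharing was also higher, so part of this fall is built in. Of the regions inside it, 20 of 101 (19.8%, 13.2 to 28.6) were called for all 3 proteins, against 9.70% (7.05 to 13.2) on the rest of the chromosome. The interval was singled out with these data known, so its values are a description.

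Windows of 5 Mb with at least 10 peaks of a list showed how far sharing varied along the chromosome. For E2F1 it ran from 27.8% at 80 to 85 Mb to 76.5% at 35 to 40 Mb, over 11 windows. For E2F3B it ran from 7.69% at 65 to 70 Mb, where 1 of 13 peaks was shared, to 75% at 35 to 40 Mb, over 12 windows. For E2F3A, with 4 such windows, it ran from 44.4% at 45 to 50 Mb to 81.8% at 55 to 60 Mb. From 35 to 40 Mb, 8 of 28 regions (28.6%) were called for all 3 proteins, the highest share of a 5 Mb window with 10 or more regions. The dense stretches differed from each other too: all 10 E2F3A peaks at 34 to 36 Mb overlapped another list, while 43.8% did so at 45 to 48 Mb, where only 26.5% of the 49 regions were in 2 or 3 lists.

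The typical width of a peak on chromosome 17 differed little from that elsewhere, while the widest peaks were frequent there. Median widths were 598.5 bp for E2F1 (quartiles 514 and 829.5), 356 bp for E2F3A (298.5 and 403.5) and 365.5 bp for E2F3B (303.5 and 479.8), against 606, 341 and 355 bp on the other autosomes. The medians ranked 12, 1 and 2 among the autosomes. Of the widest 10% of each list, chromosome 17 held 43 of 379 peaks for E2F1 (11.3%, interval 8.53 to 14.9), 21 of 200 for E2F3A (10.5%, 6.97 to 15.5) and 48 of 470 for E2F3B (10.2%, 7.79 to 13.3). Its shares of all peaks of these lists were 6.65%, 6.81% and 5.91%. Of these wide peaks, 14 of 43, 5 of 21 and 13 of 48 lay from 27 to 36 Mb. That interval held 23.4%, 24.3% and 28.1% of all chromosome 17 peaks, in the same order of lists. Most wide peaks were thus elsewhere on the chromosome, as were most peaks of any width. All 21 of the wide E2F3A peaks overlapped another list, as did 37 of the 43 for E2F1 and 38 of the 48 for E2F3B. The same share for wide peaks of the other autosomes was not taken, so these counts have no background. Shared peaks had the larger median width on the other autosomes too, in each list.

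On chromosome 17 the width gap between shared and unshared peaks was largest for E2F1. Shared E2F1 peaks had a median of 796 bp and unshared ones 541 bp, against 696 and 570 bp on the other autosomes. Shared E2F1 peaks of chromosome 17 were thus 100 bp wider at the median than those elsewhere and unshared ones 29 bp narrower, which left the overall medians 7.5 bp apart. The medians of E2F3A were 385 and 337 bp, against 361 and 331 bp, and those of E2F3B 441.5 and 346 bp, against 416.5 and 337 bp. Wider peaks meet an overlap of 1 bp more easily, and how much of the sharing follows from width was not tested.

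The widest peaks of the chromosome show the same spread along it. The widest E2F1 peaks were at chr17:35117584-35119537 (1954 bp), chr17:29231158-29233061 (1904 bp), chr17:48548199-48549970 (1772 bp), chr17:26644374-26646036 (1663 bp) and chr17:56442386-56443975 (1590 bp). In the whole E2F1 list they ranked 2, 3, 6, 13 and 15 by width. The peak of 1954 bp overlapped E2F3B but not E2F3A, and the other 4 overlapped both. Their centres were nevertheless apart, since only the peak of 1590 bp had an E2F3B centre within 100 bp and none had an E2F3A centre that close.

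The widest E2F3A peaks were at chr17:35978013-35978968 (956 bp), chr17:84587370-84588153 (784 bp), chr17:35183402-35184142 (741 bp), chr17:25152482-25153190 (709 bp) and chr17:35653509-35654204 (696 bp). The first of these was the widest of the whole E2F3A list and overlapped E2F3B but not E2F1, although the other 2 regions of its group, from 35973867 to 35978968, were called for all 3 proteins. The other 4 overlapped both other lists, also under a reciprocal overlap of at least 50%. Of these 5 peaks, 3 lay within the window from 35 to 36 Mb, the window with the most E2F3B peaks. The peak of 696 bp had the centres of both an E2F1 and an E2F3B peak within 100 bp.

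The widest E2F3B peaks were at chr17:27692004-27693529 (1526 bp), chr17:56442503-56443931 (1429 bp), chr17:48548853-48550096 (1244 bp), chr17:84587070-84588308 (1239 bp) and chr17:39984784-39985854 (1071 bp). The peak of 1526 bp belonged to the group of 3 regions described above and overlapped E2F1 only. The next 3 overlapped both other lists, at positions already named among the widest peaks of E2F1 or E2F3A. The peak of 1071 bp overlapped neither, and it was the only one of these 15 peaks without a partner. Regions known for artefact signal were not filtered out, so this position is given as a call in 1 library.

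Of the 55 regions called for all 3 proteins, the widest were spread over the chromosome. The region at chr17:29231158-29233061 (1904 bp) held single peaks, of which the E2F1 peak had 1904 bp, the E2F3A peak 549 bp and the E2F3B peak 642 bp. The region at chr17:48548199-48550096 (1898 bp) held 1772, 319 and 1244 bp in that order. The region at chr17:26644374-26646047 (1674 bp) held 1663, 509 and 1027 bp. In the region at chr17:56442386-56443975 (1590 bp), 1 E2F1 peak of 1590 bp spanned 2 E2F3A peaks of 1001 bp in sum and 1 E2F3B peak of 1429 bp. In the region at chr17:80605761-80607225 (1465 bp), 1 E2F1 peak of 1465 bp spanned 1 E2F3A peak (394 bp) as well as 2 E2F3B peaks (765 bp in sum). In all 5 the E2F1 peak covered most of the region and the E2F3A peaks the least. More than 1 peak of a list within a merged region was rare, with 1 such region for E2F1, 4 for E2F3A and 7 for E2F3B.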

How the data were processed

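The 3 peak lists were used as deposited. Per the submitters' processing notes, Bowtie2 and SAMtools were used with the build mm9, and per the peak names in the files, MACS called the peaks. Their versions, the threshold, the control and the treatment of duplicates are not stated there, and another threshold or control would change every count. The deposited lists, 1 for each sample, hold peak positions and names without scores. Starts were taken to count from 0, and 1 bp was added for printing. Densities divide by the distance between the outermost peaks of a chromosome, gaps in the assembly included. Shares have 95% Wilson intervals, and differences of shares have intervals built from these (Newcombe). For windows, the grid began at position 0. The members and lists of regions to name were chosen with earlier results of these data known. Regions named in the text are, for each list, its 5 widest peaks, then the 5 widest regions common to all lists, the fullest windows, the closest groups (largest first) and the longest gap. The step that counts overlaps and windows recovered the planted values in 9 of 9 simulated sets. Software was Python 3.11.15, numpy 2.4.6, pandas 2.3.3, scipy 1.17.1 and matplotlib 3.10.9.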

Additional observations from a re-analysis of the deposited data

How the results depend on the processing

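Of 71 recomputed values, for 24 results, 47 stayed within their interval or within 1.5 times the count, 22 moved further and 2 changed sign. With the 50% widest peaks, densities on chromosome 17 were 1.36 (E2F1), 0.891 (E2F3A) and 1.63 (E2F3B) per Mb, with unchanged ranks, and with equal numbers of widest peaks 1.42 for E2F1 and 1.46 for E2F3B, which fewer peaks impose. Without the 5 densest windows of each autosome they were 2.14, 1.14 and 2.31 per Mb, ranking 3, 2 and 1. Without 27 to 36 Mb, added after seeing the data, they were 2.32, 1.24 and 2.41, ranking 3, 2 and 7 against the whole of each other autosome. Shared shares fell to 27.4%, 44.1% and 31.7% with peak centres within 100 bp. They fell to 31.7%, 42.6% and 37.4% with a reciprocal overlap of at least 50%. The excess over the other autosomes fell to 0.119 and 1.71 points for E2F1, in the same order of rules. It was 7.95 and 5.77 points for E2F3A and 5.82 and 8.31 points for E2F3B. In the 50% widest peaks, E2F1 had 58.4% shared, an excess of 11.7 points. The excess of all E2F1 peaks was -1.14 points without 27 to 36 Mb of chromosome 17, against the whole of the other autosomes. The width difference of E2F1 from other autosomes, -7.5 bp, was 100 bp for shared and -29 bp for unshared peaks. The density ratio of 27 to 36 Mb was 3.88 for E2F1 in the 50% widest peaks and 2.60 for E2F3B from 28 to 35 Mb. No paired analysis was possible because only 1 library represented each protein. A bound site under the caller's threshold counts as unshared, and unknown depth limits every comparison between lists.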
